A study of Mus musculus with 6 samples.

Results

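The genes described here encode the membrane skeleton of lens fibre cells, the protein lattice that lines the cell membrane and holds it to actin. They are the tropomodulins Tmod1 and Tmod3, the spectrins Sptan1 and Sptbn1, the ankyrins Ank2 and Ank3, and the ERM proteins Ezr, Msn and Rdx. The members were picked by gene symbol, and all 9 were found among the 13024 genes of the count table. Genes were tested where 3 or more libraries held 10 or more counts, which left 12879 genes and all 9 members.

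Lenses were taken from mouse embryos at E14.5, on a mixed C57BL/6 and FVB background, and polyadenylated RNA was sequenced. Each group had 3 pools, and each pool held 10 lenses from 5 embryos. The CKO group is labelled Gata3 -/-. In the study's text it is Gata3 f/f with 1 copy of the Pax6-Cre transgene, in which Cre removes an exon of Gata3. The control group is labelled wild type, and the study's text gives it as Gata3 f/wt in one place and as Gata3 f/f in another, in both cases without Cre. Only the CKO group therefore carried the transgene, and an effect of Cre itself and of the loss of Gata3 cannot be told apart. The transgene runs Cre from regulatory DNA of Pax6, so that the future lens and cornea recombine, with some retinal cells besides.

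As background, spectrin alpha and beta chains form long heterodimers, and pairs of these join into tetramers that cross-link short actin filaments below the membrane. Tropomodulins cap the pointed ends of these filaments, ankyrins tie beta spectrin to membrane proteins, and ERM proteins link the membrane to actin directly. In the lens this skeleton supports the elongated hexagonal shape and the packing of fibre cells, and Tmod1 is a tropomodulin of differentiating fibres.

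The libraries held between 15157230 and 18811104 counts. Gata3 stood at 12.8, 27.2 and 8.71 CPM (counts per 1000000 of effective library size) in control replicates 1, 2 and 3. In the libraries labelled CKO it stood at 59.0, 54.1 and 46.5 CPM. All of the latter values lay above all of the controls, with a log2 fold change of 1.72 (SE 0.40) and an adjusted p of 0.650 in edgeR's quasi-likelihood test. DESeq2 gave the same log2 fold change of 1.72 with an adjusted p of 0.00164, which is past the threshold of 0.05. Without control replicate 2 the edgeR value was 2.32, with an adjusted p of 0.0560. Over 14 alternative settings the adjusted p ranged from 0.00164 to 1.0, and only DESeq2 was past the threshold. This count covers the whole gene and the deleted exon was not counted apart, so it does not check the deletion, which the study examined by PCR of the alleles, by qPCR at the exon and in the sequenced reads. The value therefore bears on the level of the whole transcript and not on whether the label is right. The group is called below the libraries labelled CKO, after its label.

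Control replicate 2 stood apart from the other 5 libraries. It lay at -43.0 on the first principal component, which held 43.1% of the variance, while the others lay between -9.69 and 24.3. On the second component, which held 29.0% of the variance, CKO replicate 2 lay apart at 33.05, and the others lay between -19.6 and 14.05. All 16 listed crystallins were in the table, with Cryaa the most abundant. Their summed level was 93273, 189392 and 64181 CPM in the controls and 71414, 57027 and 52088 CPM in the libraries labelled CKO. Of 19 lens fibre markers 18 were in the table, and their sums were 13416, 27749.5 and 9614 CPM in the controls and 12762, 10053 and 8756 CPM in the libraries labelled CKO. Both sums were highest in control replicate 2, and both overlapped between the groups. By gene, 10 of the 16 crystallins and 8 of the 18 fibre markers were lower in the libraries labelled CKO without overlap, against 4.69% of all tested genes. In bulk RNA, fewer fibre cells and less fibre RNA per cell cannot be told apart.

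Markers of other cells also varied between libraries. Of 12 blood markers 9 were in the table, led by the embryonic globin Hbb-y, with sums of 603, 1445 and 399 CPM in the controls against 343, 472 and 464 CPM in the libraries labelled CKO. The globins Hba-a2, Hbb-bt and Hbb-bs were at 0 in every library. They have near-identical copies, which leaves their counts uncertain. All 11 retina markers, led by Fgf15, were present, with sums of 2491, 1521 and 3266 CPM against 2463, 2259 and 3035 CPM. All 7 neuron markers, led by Tubb3, were present, with sums of 1198, 574 and 1907 CPM against 1430.1, 1149.7 and 1573 CPM. Control replicate 2 was thus the highest library for blood and the lowest for retina and neuron.

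All 11 mesenchyme markers were present, led by Col1a2, with sums of 2354, 684 and 331 CPM in the controls and 367, 4078 and 598 CPM in the libraries labelled CKO. Of 7 pigment cell markers 6 were in the table, led by Pmel, with sums of 341, 98.6 and 69.8 CPM against 86.4, 341 and 72.6 CPM. Control replicate 1 and CKO replicate 2 were the high libraries for both lists. Over the 6 libraries the sums of the other lists ranged from 1034 to 1399 CPM for 5 of 5 lens epithelium markers, led by Pax6, and from 239.6 to 339 CPM for 7 of 7 vessel markers, led by Kdr. They ranged from 69.2 to 151 CPM for 9 of 10 macrophage markers, led by Csf1r. For 7 of 7 surface ectoderm markers, led by Krt5, the range was 44.4 to 161 CPM, and for 6 of 7 skeletal muscle markers, led by Myh3, it was 61.0 to 284 CPM.

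No member differed between the groups past the threshold of an adjusted p of 0.05 in edgeR's quasi-likelihood test, which called 0 of 12879 genes (0%). DESeq2 called 85 of 12969 genes (0.655%) and 0 of the 9 members. At an unadjusted p under 0.05 edgeR found 0 of the 9 members, against 457 genes, or 3.55% of all tested. The groups did not overlap for 1 of the 9 members, Rdx, against 8.36% of all tested genes. The fold change was below 0 for 8 of the 9 members, and for 6364 of the 12879 tested genes. The median of the members was -0.12 on the log2 scale, beside 0.00 over all tested genes. When control replicate 2 was left out, 6 members were below 0, with a median of -0.15. When CKO replicate 2 was left out, 8 were below 0, with a median of -0.13 and 0 members under an unadjusted p of 0.05. Over 14 alternative settings the adjusted p of the members ranged from 0.447 to 1.0.

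**Figure D1:**
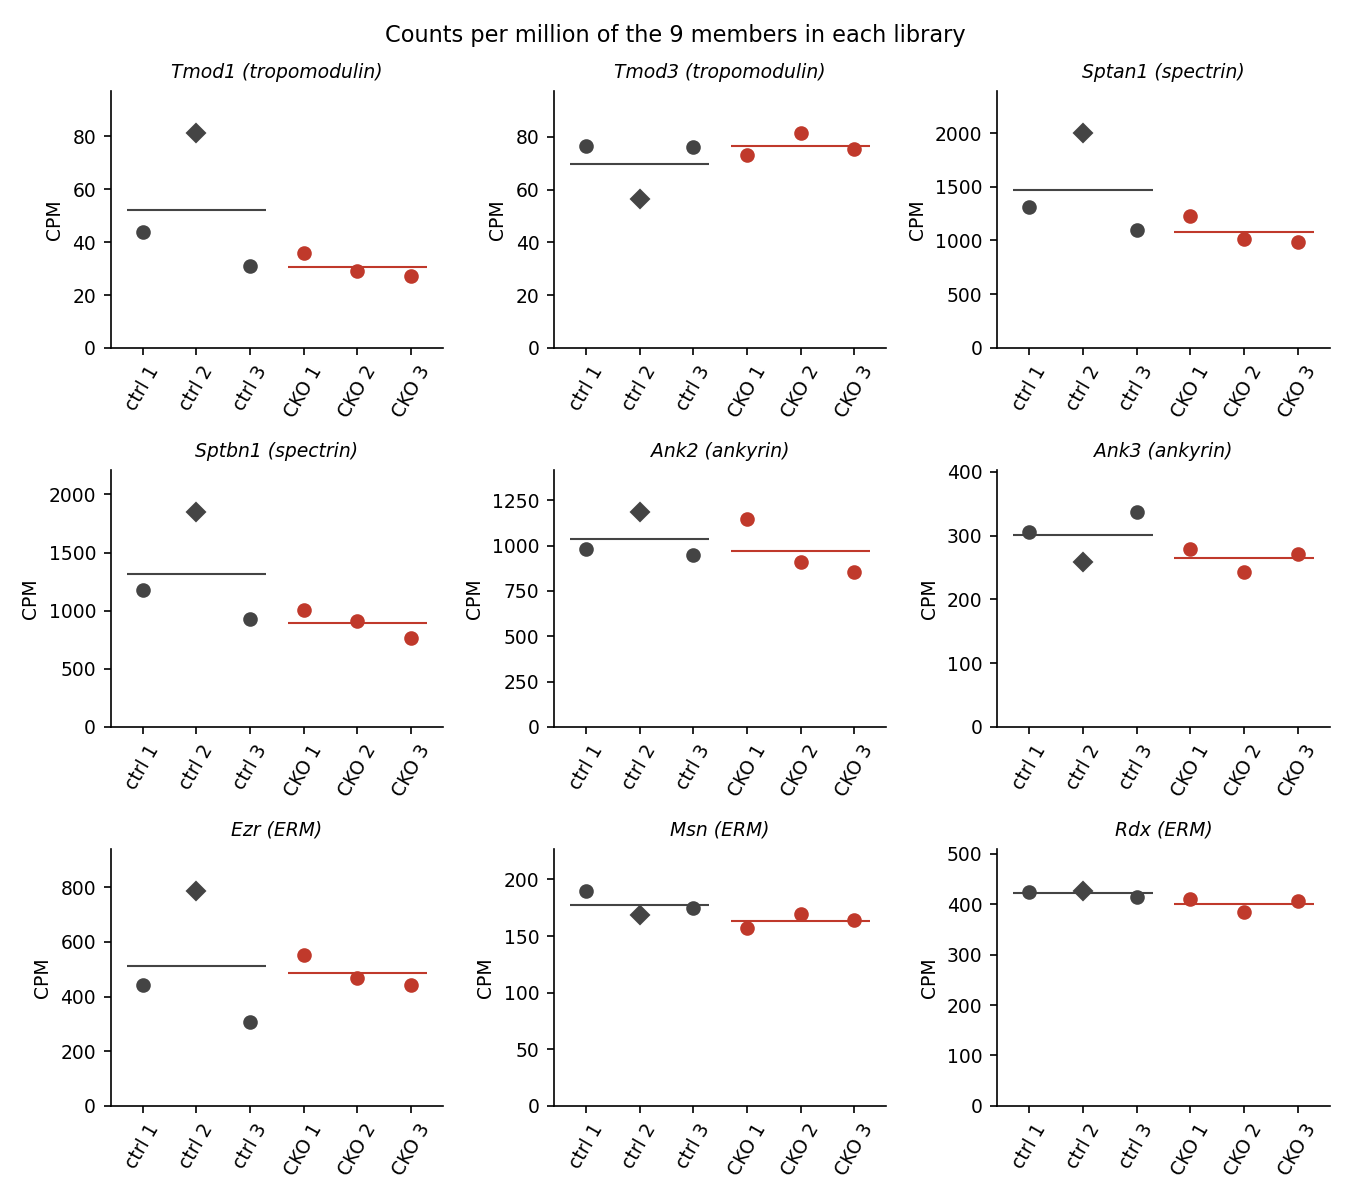
CPM of the 9 members in each of the 6 libraries (linear axes from 0), with control pools in grey, pools labelled CKO in red, control replicate 2 as a diamond and group means as lines. Control replicate 2 is the highest library for Tmod1 (81.1 CPM), Sptan1 (1997 CPM), Sptbn1 (1845 CPM), Ank2 (1184 CPM), Ezr (785 CPM) and Rdx (425 CPM) and the lowest for Tmod3 (56.3 CPM).

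Among the tropomodulins, Tmod1 (chr4:46038935-46116032 of GRCm38, plus strand), which caps pointed ends of actin in the spectrin lattice, gave 43.7, 81.1 and 31.1 CPM in control replicates 1, 2 and 3. It gave 35.7, 29.1 and 27.1 CPM in the libraries labelled CKO. Control replicate 2 lay far above the rest, and the groups overlapped because CKO replicate 1 lay above control replicate 3. The log2 fold change of -0.76 (SE 0.34, 95% interval -1.59 to 0.06) was the lowest of the members, with an unadjusted p of 0.0648 and an edgeR adjusted p of 0.9998. It was -0.28 when control replicate 2 was left out, with an unadjusted p of 0.183. Without control replicate 3 it was -1.03, with an unadjusted p of 0.0105.

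The Tmod1 count carries a further limit. Of the 3946 bases in its annotated exons, 1287 (32.6%) also lie in exons of Tstd2 on the opposite strand. The libraries were strand-specific, but the strand setting used in counting is not given in the sources used here, and whether reads of the 2 genes were kept apart was not tested. Tstd2 itself gave 63.8, 61.5 and 64.5 CPM in the controls and 67.8, 62.2 and 63.4 CPM in the libraries labelled CKO. It varied little between the libraries. The Tstd2 count cannot show whether reads of the shared bases entered the Tmod1 count.

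The RefSeq promoter of Tmod1, 250 bases before to 50 bases after its start, is shown because Tmod1 and the spectrins had a like pattern over the libraries and the targeted gene encodes a factor that binds GATA letters. The letters AGATAA and AGATAG were searched on both strands, as were TGATAA and TGATAG. At least 1 of them was held by 9778 of 32851 promoters of the same length in the table (29.8%). They are absent from the Tmod1 window (chr4:46038972-46039271, GRCm38.p6, plus strand), so it is printed in lower case only. This window has 66.0% G and C against a median of 52.7% over all promoters.
Tmod1: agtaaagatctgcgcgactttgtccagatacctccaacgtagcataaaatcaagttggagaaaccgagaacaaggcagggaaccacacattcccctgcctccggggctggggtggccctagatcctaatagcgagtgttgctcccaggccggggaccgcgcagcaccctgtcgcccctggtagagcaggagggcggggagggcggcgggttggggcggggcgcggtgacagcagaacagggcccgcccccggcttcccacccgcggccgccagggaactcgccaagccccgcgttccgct

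Tmod3 (chr9:75497707-75559657, minus strand), the widely expressed tropomodulin, gave 76.7, 56.3 and 76.2 CPM in the controls and 73.1, 81.3 and 75.6 CPM in the libraries labelled CKO. Here control replicate 2 was the lowest library and the other 5 lay close together. Its log2 fold change was 0.14 (SE 0.13, 95% interval -0.17 to 0.45, unadjusted p of 0.333), and 0.02 without control replicate 2. The ratio of Tmod1 to Tmod3, each in CPM per kb of annotated exon, was 1.61, 4.07 and 1.15 in the controls and 1.38, 1.01 and 1.01 in the libraries labelled CKO. Apart from control replicate 2 the ratio lay between 1.01 and 1.61, and the groups overlapped.

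The spectrin alpha chain Sptan1 (chr2:29965560-30031451, plus strand), the alpha subunit of tissues other than red cells, gave 1314, 1997 and 1094 CPM in the controls. In the libraries labelled CKO it gave 1232, 1014 and 989 CPM. Its partner Sptbn1 (chr11:30099395-30268175, minus strand), a beta chain with binding sites for actin and ankyrin, gave 1176, 1845 and 929 CPM in the controls and 1003, 915 and 769 CPM in the libraries labelled CKO. In both genes control replicate 2 was far above the others, CKO replicate 3 was lowest, and CKO replicate 1 lay above control replicate 3, so that the groups overlapped.

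For Sptan1 the log2 fold change was -0.45 (SE 0.23, 95% interval -0.999 to 0.11), with an unadjusted p of 0.0978 and an edgeR adjusted p of 0.9998. For Sptbn1 it was -0.56 (SE 0.26, 95% interval -1.18 to 0.06), with an unadjusted p of 0.0711 and an edgeR adjusted p of 0.9998. These values rested in large part on control replicate 2. With that library left out they were -0.15 for Sptan1 and -0.22 for Sptbn1, with unadjusted p of 0.294 and 0.186. Without control replicate 3 they were -0.62 and -0.75, with unadjusted p of 0.0189 and 0.0109, where 9.59% of all tested genes passed an unadjusted p of 0.05. DESeq2 gave Tmod1 and Sptbn1 unadjusted p of 0.0247 and 0.0287, against 3.96% of all genes under 0.05.

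The 2 chains kept a near constant proportion. The ratio of Sptan1 to Sptbn1 per kb of annotated exon was 1.46, 1.42 and 1.54 in the controls and 1.61, 1.45 and 1.68 in the libraries labelled CKO. The ratio in control replicate 2 was the lowest of the 6 but close to the others, although both genes had their highest level there. The groups overlapped.

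Sptan1 has 1 listed RefSeq promoter and Sptbn1 has 2, given here as the promoters of the pair with the most alike pattern among Tmod1 and the spectrins. The annotated gene of Sptbn1 begins further upstream than both of its windows, at chr11:30268175, and no window at that start was searched. The Sptan1 window (chr2:29965310-29965609, plus strand) holds none of the searched GATA letters. The upstream Sptbn1 window (chr11:30219723-30220022, minus strand) holds TTATCA, which is TGATAA on the other strand, at position -73 from the start. The downstream Sptbn1 window (chr11:30198208-30198507, minus strand) holds TGATAG at position -238. Capitals mark these letters, all windows are of GRCm38.p6, and a match is a description of the sequence only.
Sptan1: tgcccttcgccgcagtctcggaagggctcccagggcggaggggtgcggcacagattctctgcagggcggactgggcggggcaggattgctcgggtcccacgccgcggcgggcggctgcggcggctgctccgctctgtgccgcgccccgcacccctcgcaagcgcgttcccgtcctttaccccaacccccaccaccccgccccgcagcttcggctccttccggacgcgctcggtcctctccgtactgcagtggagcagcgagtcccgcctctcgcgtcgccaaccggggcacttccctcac
Sptbn1, upstream start: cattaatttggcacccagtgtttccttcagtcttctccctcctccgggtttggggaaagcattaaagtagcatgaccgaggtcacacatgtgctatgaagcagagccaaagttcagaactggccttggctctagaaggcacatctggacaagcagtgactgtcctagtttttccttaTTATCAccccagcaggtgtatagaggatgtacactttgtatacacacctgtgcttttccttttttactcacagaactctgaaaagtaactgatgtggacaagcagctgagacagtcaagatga
Sptbn1, downstream start: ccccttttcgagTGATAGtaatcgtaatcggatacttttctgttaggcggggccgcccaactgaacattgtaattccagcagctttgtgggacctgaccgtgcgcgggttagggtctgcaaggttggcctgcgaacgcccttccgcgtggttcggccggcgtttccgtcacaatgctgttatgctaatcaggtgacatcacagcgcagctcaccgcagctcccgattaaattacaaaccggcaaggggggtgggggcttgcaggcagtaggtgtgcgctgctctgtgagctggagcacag

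Over the 7 members with an entry in the promoter table, all but Tmod3 and Ank3, 3 of 12 promoters held the GATA letters, beside 29.8% of all promoters. These were both listed promoters of Sptbn1 and 1 of the 2 of Rdx. The promoters of Sptan1, Tmod1, Ezr, Msn and Ank2 held none in these windows.

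Among the ankyrins, Ank2 (chr3:126921612-127499350, minus strand), or ankyrin-B, anchors transporters and adhesion proteins and is the ankyrin tied to the spectrin lattice of fibres. It gave 979.6, 1184 and 949.5 CPM in the controls and 1147, 913 and 857 CPM in the libraries labelled CKO. Control replicate 2 and CKO replicate 1 were the high libraries, and the groups overlapped. The log2 fold change was -0.09 (SE 0.15, 95% interval -0.45 to 0.26, unadjusted p of 0.548), and it turned to 0.02 without control replicate 2. Without CKO replicate 1 it was -0.23.

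Ank3 (chr10:69398773-70027438, plus strand), or ankyrin-G, which organises lateral membranes of epithelia and axon initial segments, gave 306, 259 and 336 CPM in the controls. It gave 279, 243 and 272 CPM in the libraries labelled CKO. Control replicate 2 lay among the libraries labelled CKO, and the other controls lay above all of them. The log2 fold change was -0.18 (SE 0.11, 95% interval -0.45 to 0.09, unadjusted p of 0.153). With control replicate 2 left out it was -0.27, with an unadjusted p of 0.0133. Ank3 was then the only member under an unadjusted p of 0.05, where 6.27% of all tested genes were. Without control replicate 3 the value of Ank3 was -0.09, with an unadjusted p of 0.410. The neuron sums were 1198, 574 and 1907 CPM in control replicates 1, 2 and 3 and 1430.1, 1149.7 and 1573 CPM in the libraries labelled CKO. Of the latter, CKO replicates 1 and 3 lay above control replicate 1, while for Ank3 they lay below it. The part of neuron RNA in the result was not tested.

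The ratio of Ank2 to Ank3 per kb of annotated exon was 3.19, 4.55 and 2.81 in the controls and 4.09, 3.74 and 3.14 in the libraries labelled CKO. It was highest in control replicate 2, and the groups overlapped.

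Of the ERM genes, Ezr (chr17:6738041-6782784, minus strand), or ezrin, the form of microvilli and apical membranes, varied most. It gave 442, 785 and 308 CPM in the controls and 551, 466 and 441 CPM in the libraries labelled CKO. The controls held both the highest and the lowest library, and the libraries labelled CKO lay between. For Ezr the log2 fold change was -0.07 (SE 0.33, 95% interval -0.85 to 0.71, unadjusted p of 0.830). Without control replicate 2 it was 0.38, with an unadjusted p of 0.0823, and the groups still overlapped. Without control replicate 3 it was -0.34.

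Rdx (chr9:52047173-52088735, plus strand), or radixin, gave 424, 425 and 415 CPM in the controls and 411, 384 and 406 CPM in the libraries labelled CKO. All controls lay above all libraries labelled CKO, by a small margin, and the log2 CPM of Rdx spanned 0.15 over the 6 libraries, the least of the members. The log2 fold change was -0.07 (SE 0.07, 95% interval -0.24 to 0.10), with an unadjusted p of 0.340. Groups that did not overlap with the controls above were found for 4.69% of all tested genes, so 1 of 9 members is near this background.

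Msn (chrX:96096042-96168552, plus strand), or moesin, the ERM protein of blood, vessel and other cells, gave 189, 169 and 175 CPM in the controls. It gave 157, 169.6 and 164 CPM in the libraries labelled CKO. CKO replicate 2 lay just above control replicate 2, and otherwise the controls were higher. Between the groups the log2 fold change was -0.12 (SE 0.07, 95% interval -0.30 to 0.05, unadjusted p of 0.144). Without control replicate 2 it was -0.15, and the groups no longer overlapped. The share of all tested genes without overlap in that setting was not counted. Without control replicate 1 the log2 fold change of Msn was -0.06, with an unadjusted p of 0.524.

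The mix of ERM transcripts varied most among the controls. Of the summed ERM level per kb of annotated exon, Ezr made up 52.6%, 66.8% and 44.4% in the controls and 59.6%, 56.4% and 54.2% in the libraries labelled CKO. Rdx made up 35.7%, 25.7% and 42.4% in the controls and 31.6%, 33.0% and 35.4% in the libraries labelled CKO. Msn took the rest, from 7.47% in control replicate 2 to 13.1% in control replicate 3. Without control replicate 2 the ratio of Ezr to Rdx was higher in all 3 libraries labelled CKO (1.89, 1.71 and 1.53) than in the other controls (1.47 and 1.05). With it the groups overlapped, since its ratio was 2.60. How often genes in general separate without that library was not counted, so this split has no background beside it.

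**Figure D2:**
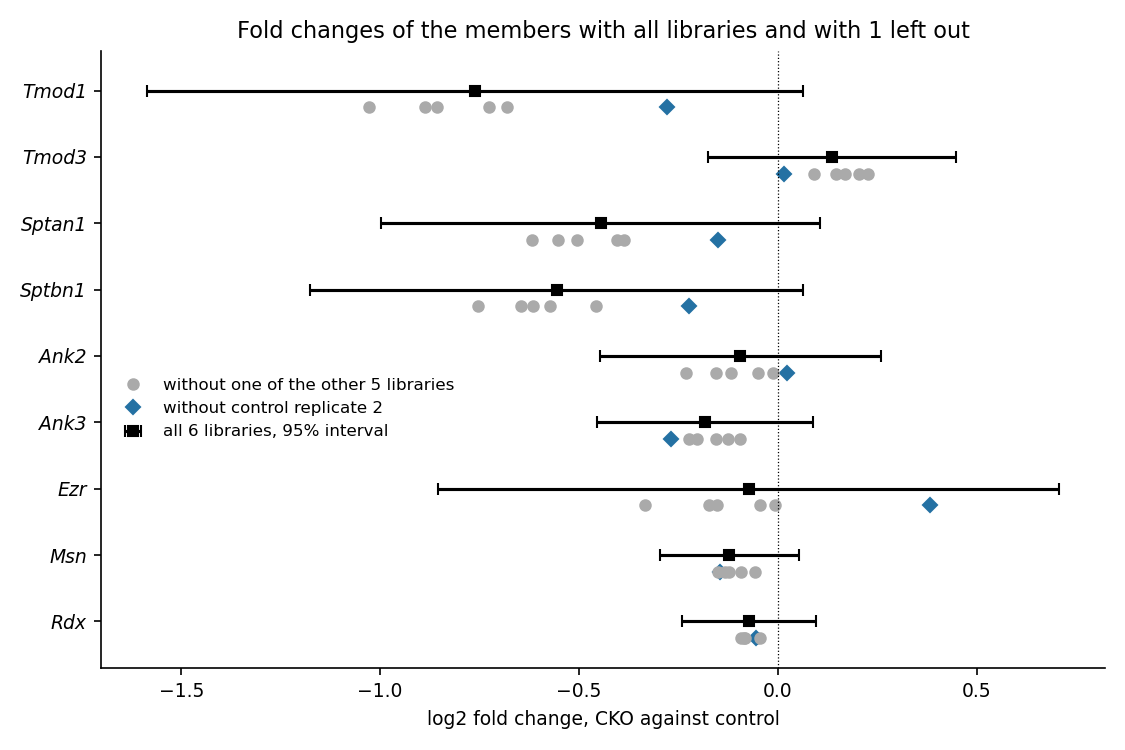
Log2 fold changes of the 9 members, CKO against control, with all 6 libraries (squares, bars are 95% intervals) and with 1 library left out (circles, and diamonds for control replicate 2). All 9 intervals include 0, and Ank2 (from -0.09 to 0.02) and Ezr (from -0.07 to 0.38) cross 0 without control replicate 2.

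Levels were compared between genes per kb of annotated exon. The exon lengths came from GENCODE, while reads were counted over RefSeq genes, so the lengths may hold bases over which no reads were counted. The control means, in CPM per kb with SD over 3 pools, were 155.5 ± 74.7 for Ezr, 109.9 ± 35.3 for Sptan1, 90.8 ± 1.22 for Rdx and 75.3 ± 27.1 for Sptbn1. The order went on with 29.6 ± 3.64 for Ank2, 28.1 ± 1.68 for Msn, 13.2 ± 6.59 for Tmod1, 8.62 ± 1.12 for Ank3 and 6.25 ± 1.04 for Tmod3. The control ranges of neighbours did not overlap at 3 steps of this order, from Sptbn1 to Ank2, from Msn to Tmod1 and from Ank3 to Tmod3. At the other 5 steps they overlapped. Within libraries part of the order was fixed, since Ezr lay above Sptan1, Rdx and Sptbn1 in all 6 libraries, and Sptan1 lay above Sptbn1 in all 6. Rdx lay above Sptbn1 in 5 of the 6 and above Sptan1 in 3 of the 6.

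In the libraries labelled CKO the order was the same but for Rdx, at 86.3 ± 3.05 CPM per kb, which stood above Sptan1 at 80.7 ± 10.0. Ezr stayed first at 147.8 ± 17.5 and Tmod3 last at 6.88 ± 0.38. The order depends on the length used. Sptan1 has 13362 bases of annotated exon but a longest coding transcript of 8018 bases, Tmod3 has 11151 and 3667, and Ezr (3290 and 3164) and Tmod1 (3946 and 3158) differ less. Per kb of the longest coding transcript, a length chosen after seeing the exon lengths, Sptan1 was first in the controls at 183 ± 58.7, Ezr second at 162 ± 77.7 and Tmod1 last at 16.5 ± 8.23. In the libraries labelled CKO, by the same length, Ezr was first at 154 ± 18.2, Sptan1 second at 134.5 ± 16.7 and Tmod1 last at 9.70 ± 1.44. By this length Sptan1 lay above Ezr in the 3 controls, in control replicate 2 by a very small margin, and below it in the 3 libraries labelled CKO. Per kb of annotated exon Ezr lay above Sptan1 in all 6 libraries. The split thus depends on the length chosen, and it was not tested.

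**Figure D3:**
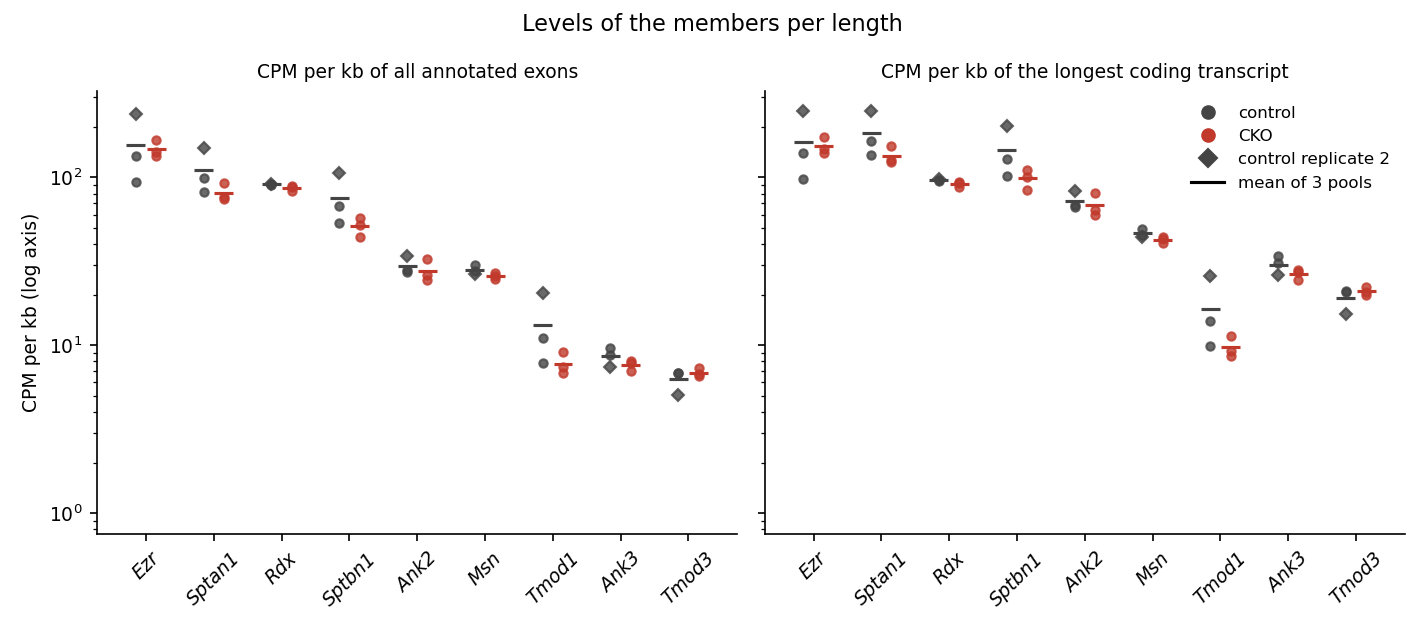
CPM per kb of the 9 members on a log axis, by library, divided by all annotated exon bases (left) or by the longest coding transcript (right), with lines at group means. Tmod3 is last by the left measure (6.25 in the controls) and Tmod1 last by the right one (16.5).

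The members fell into a varying and a steady set. The log2 CPM spanned more than 1 over the 6 libraries for Tmod1 (1.58), Ezr (1.35), Sptbn1 (1.26) and Sptan1 (1.01). It spanned between 0.15 and 0.53 for the other 5 members. Control replicate 2 was 2.43 times the mean of the other 5 libraries for Tmod1, 1.92 times for Sptbn1, 1.77 times for Sptan1 and 1.78 times for Ezr. It was 2.80 times for the crystallin sum, 2.54 times for the fibre marker sum, 3.17 times for the blood marker sum and 1.75 times for the macrophage marker sum. For Tmod3 it was 0.735 times the mean of the others, beside 0.563 times for the retina sum and 0.395 times for the neuron sum. The mesenchyme and pigment cell sums were 0.4425 and 0.542 times the mean of the others, where control replicate 1 and CKO replicate 2 were the high libraries. The other 4 lists lay between 1.05 and 1.48 times. Control replicate 2 was the highest library for 6 of the 9 members, beside 31.6% of all tested genes. The part of RNA from these cell types in the values of the members was not tested.

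With each gene centred on its mean over the 6 libraries, the root mean square difference of log2 CPM was 0.088 between Sptan1 and Sptbn1 and 0.082 between Msn and Rdx. Tmod1 differed from Sptbn1 by 0.15 and from its paralogue Tmod3 by 0.69. By the same measure the tested genes nearest to Tmod1 were Pon2, at 0.052, and Gss, at 0.054. Nearest to Sptan1 were Memo1, at 0.052, and Cars, at 0.053. Nearest to Sptbn1 were Prkca, at 0.041, and Metap1, at 0.041, and nearest to Ezr were Igfbp7, at 0.034, and Sfrp1, at 0.040. All 8 of these genes were highest in control replicate 2, as were the members whose patterns they were chosen to match, so the choice fixed this.

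**Figure D4:**
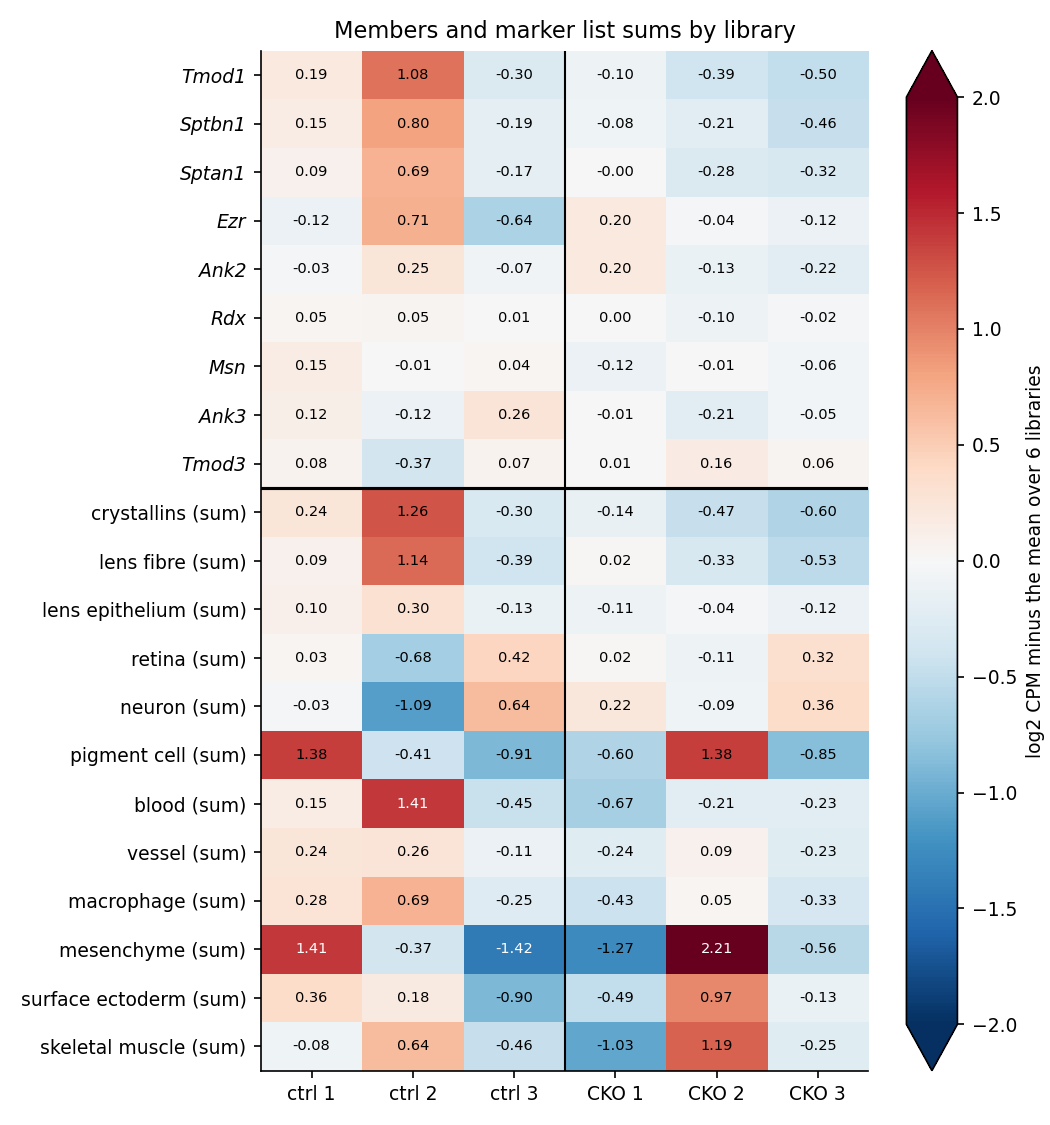
Log2 CPM of each member, and log2 of the summed CPM of each marker list, minus its mean over the 6 libraries, by library (red above the mean, blue below, colours end at 2 and -2). In control replicate 2, Tmod1 lay 1.08 above its mean and Tmod3 lay at -0.37, beside 1.26 for the crystallin sum and -1.09 for the neuron sum.

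The wider membrane skeleton was read from 6 lists, of which 61 of 67 genes were in the table and tested. None passed an adjusted p of 0.05 in edgeR's test or in DESeq2. At an unadjusted p under 0.05, 4 of the 61 were lower and 1 was higher in the libraries labelled CKO, against 2.24% and 1.3% of all tested genes. The groups did not overlap for 7 that were lower and 3 that were higher, against 4.69% and 3.67% of all tested genes. The median log2 fold change over the 61 genes was -0.07, and 0.00 without control replicate 2, where 3 were lower and 4 were higher at an unadjusted p under 0.05, against 2.47% and 3.8% of all tested genes. The 3 lower genes were then Ank3, Epb41l4a and Podxl, and the 4 higher ones were Epb41l2, Slc8a1, Capzb and Capns1. Capzb, a subunit of the capping protein of actin's barbed end, and Capns1, the small subunit of calpain, are named after their values were seen.

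All 5 spectrins in the table had a fold change below 0, as had 6364 of the 12879 tested genes. The median of the spectrins was -0.56, and -0.16 without control replicate 2. At an unadjusted p under 0.05, 1 of the 5 was lower and 0 were higher, against 2.24% and 1.3% of all tested genes.

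Of 12 genes for adducins, dematin and protein 4.1, which fasten spectrin to actin and to the membrane, 10 had a fold change below 0. This held for 6364 of the 12879 tested genes. The median of the list was -0.15, and -0.09 without control replicate 2. Epb41l4a, of the protein 4.1 family, gave 149.5, 268 and 135 CPM in the controls and 131, 109 and 113 CPM in the libraries labelled CKO, without overlap. The difference was -0.65 on the log2 scale (SE 0.26, unadjusted p of 0.0455), and -0.27 without control replicate 2 (unadjusted p of 0.0276). Add1 (-0.12), Epb41 (-0.19) and Epb41l1 (-0.19) were also lower without overlap, at unadjusted p of 0.121, 0.0689 and 0.0588, and Add1 was at -0.08 without control replicate 2. By the mean of all 6 libraries Epb41l2 had the highest level of the list, at 37.9 CPM per kb beside 36.7 for Add1. In the controls alone Add1 was the higher, at 38.2 ± 1.56 CPM per kb beside 36.7 ± 8.98 for Epb41l2, a difference within the spread of Epb41l2. The log2 fold change of Epb41l2 was 0.09 (unadjusted p of 0.629) and the groups overlapped. Without control replicate 2 it was 0.31, with an unadjusted p of 0.0157 and no overlap, and without control replicate 3 it turned to -0.04. The share of all tested genes without overlap when control replicate 2 was left out was not counted.

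Of 11 ankyrins and membrane partners, 1 passed an unadjusted p of 0.05, against 3.55% of all tested genes. Slc8a1, the sodium and calcium exchanger held by ankyrin-B in muscle, gave 59.2, 54.8 and 59.8 CPM in the controls and 77.0, 68.9 and 65.4 CPM in the libraries labelled CKO. It was higher in all of the latter, with a log2 fold change of 0.28 (SE 0.09), an unadjusted p of 0.0167 and an edgeR adjusted p of 0.9998, and 0.25 without control replicate 2.

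Of 13 tropomodulins, tropomyosins, actins and capping proteins, 0 passed an unadjusted p of 0.05, against 3.55% of all tested genes. The median log2 fold change of the list was 0.00. Actb, the most abundant at 648 ± 16.8 CPM per kb in the controls and 685.5 ± 18.7 in the libraries labelled CKO, was higher in all of the latter. Its log2 fold change was 0.08 (SE 0.10, unadjusted p of 0.433), and its count is uncertain because other actins and pseudogenes share much of its sequence.

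Of 15 ERM proteins and partners, Podxl, or podocalyxin, an apical sialomucin bound by ezrin through adaptors, gave 59.9, 61.2 and 53.4 CPM in the controls. It gave 47.4, 46.7 and 36.2 CPM in the libraries labelled CKO, all below the controls. Its log2 fold change was -0.42 (SE 0.13), with an unadjusted p of 0.0126 and an edgeR adjusted p of 0.989, and -0.37 without control replicate 2 (unadjusted p of 0.0308). Stk10, a kinase of ERM proteins, was lower without overlap at -0.21 (unadjusted p of 0.127). Ppl, or periplakin, was higher without overlap at 0.99 (unadjusted p of 0.113), from 2.74 to 12.97 CPM in the controls and from 13.01 to 23.7 CPM in the libraries labelled CKO. Without control replicate 3 the value of Ppl was 0.55, and without control replicate 2 it was 1.37.

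Of 5 genes for calpains and calpastatin, proteases that cut spectrin and their inhibitor, Capn3 was the most abundant at 801 ± 481 CPM per kb in the controls and 304 ± 119 in the libraries labelled CKO. It gave 3313, 6714 and 2037 CPM in the controls and 2201, 1307 and 1067 CPM in the libraries labelled CKO. CKO replicate 1 lay above control replicate 3, so the groups overlapped. For Capn3 the log2 fold change was -1.40 (SE 0.48, 95% interval -2.56 to -0.24), with an unadjusted p of 0.0249 and an edgeR adjusted p of 0.9998. It was -0.80 when control replicate 2 was left out, with an unadjusted p of 0.102. The other 4 genes of the list had log2 fold changes from -0.27 to 0.04, and from -0.09 to 0.26 without control replicate 2. Among them Capns1 went from 0.03 to 0.23 when that library was left out, with an unadjusted p of 0.0298. Its groups then no longer overlapped, and the share of all tested genes without overlap in that setting was not counted. Without control replicate 3 the value of Capns1 turned to -0.11.

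**Figure D5:**
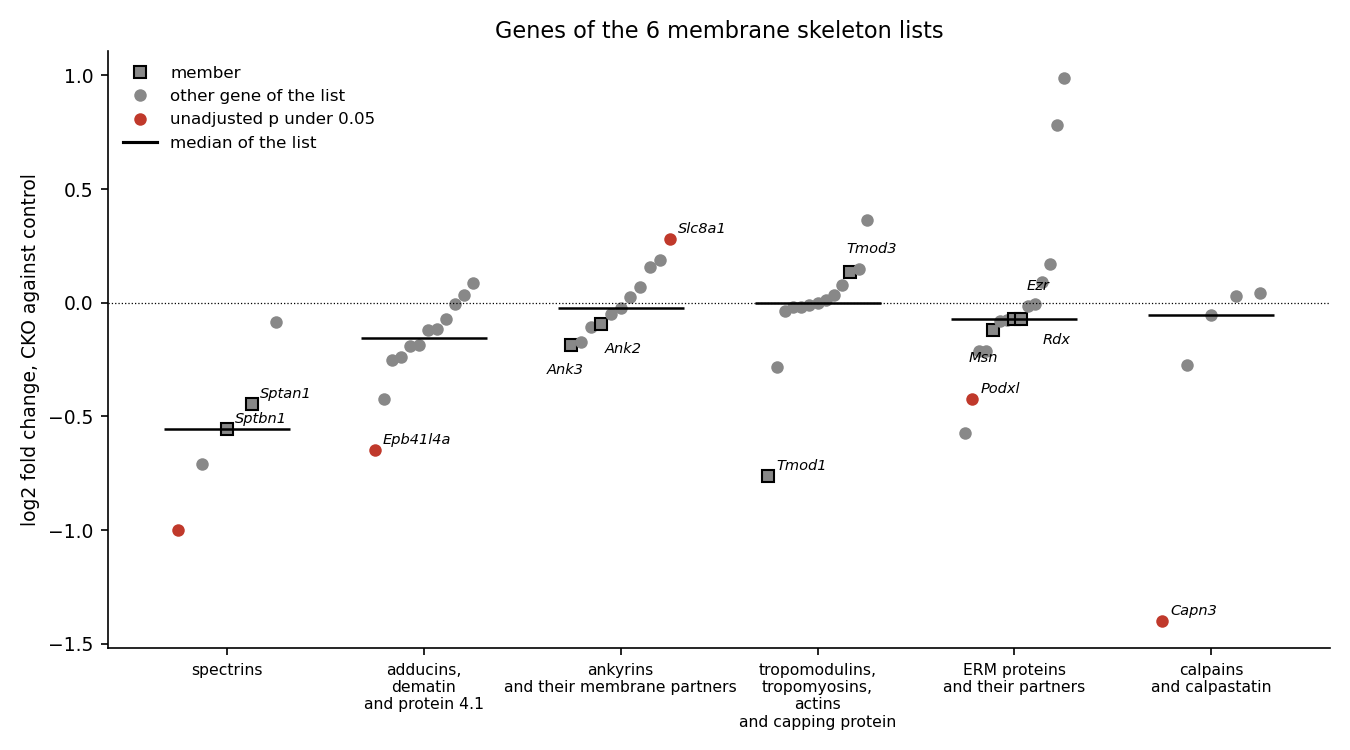
Log2 fold changes of the 61 tested genes of the 6 membrane skeleton lists, CKO against control, with members as squares, genes under an unadjusted p of 0.05 in red and list medians as lines. The spectrins have the lowest median (-0.56), and Capn3 has the lowest value (-1.40).

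Of the crystallins and lens fibre markers 0 passed an adjusted p of 0.05 in edgeR's test, while DESeq2 called 4 of the 16 crystallins and 7 of the 18 fibre markers, against 0.655% of all genes. At an unadjusted p under 0.05 in edgeR's test 10 crystallins and 10 fibre markers were lower, against 2.24% of all tested genes. The list medians on the log2 scale were -1.19 for the crystallins and -1.07 for the fibre markers. Without control replicate 2, 10 crystallins and 9 fibre markers were lower and 1 of each list was higher, against 2.47% and 3.8% of all tested genes. The medians were then -0.63 and -0.50. The lens epithelium list had 0 of 5 genes at an unadjusted p under 0.05. The part of these fibre genes in the spectrin and Capn3 values was not tested.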

How the data were processed

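The authors deposited a table of raw counts per gene. According to the submitters' notes and the study's methods, reads were trimmed with Trim Galore, aligned to mm10 with TopHat2 2.0.13 and counted over RefSeq genes with HTSeq 0.6.1. From FPKM values by Cuffdiff 2.2.1 the authors dropped genes whose group means were both 1 or below, so a gene absent from the table was not analysed here. Tests were run in R 4.3.3 with edgeR 4.0.16 (TMM factors, robust quasi-likelihood F-test, two-sided, Benjamini-Hochberg over all genes where 3 or more libraries had 10 or more counts). DESeq2 1.42.0 and limma 3.58.1 (voom) were alternatives, and tables and figures were made with Python 3.11.15. The steps were tested on simulated data. Unadjusted p-values are those of the same fits. Exon lengths and positions came from GENCODE M21 (GRCm38), and promoters from RefSeq. Replicates are numbered by the sample titles, and the columns of CKO replicates 1, 2 and 3 carry the numbers 2, 3 and 4. Libraries held 15157230 to 18811104 counts.

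The members, lists and tests were chosen with earlier results of these data known. Genes named are the members, Gata3, list genes under an unadjusted p of 0.05 or without overlap, each list's highest per kb, each marker list's most abundant gene and those at 0, and the 2 nearest genes of members spanning over 1. Tstd2, Capzb, Capns1 and the sums by library were added after values were seen. Some genes that this rule names are not reported here.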

Additional observations from a re-analysis of the deposited data

How the results depend on the processing

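Each of the 9 fold changes was computed under 14 other settings, and 122 of 126 values kept their sign. None passed an adjusted p of 0.05. Ezr turned to 0.023 with limma voom, 0.033 with the replicate block and 0.384 without control replicate 2, and Ank2 turned to 0.022 without that library. With 1 library left out Ezr ranged from -0.335 to 0.384 and Ank2 from -0.230 to 0.022. The cause was not tested. DESeq2 called 85 genes against 0 with edgeR. Leaving out 1 library gave 0 to 1 called genes and 271 to 1234 at an unadjusted p under 0.05, with 806 without control replicate 2 and 1234 without control replicate 3. The following counts were chosen after seeing the data. Members at an unadjusted p under 0.05 numbered 2 with DESeq2 (Tmod1 and Sptbn1), 1 with the replicate block (Sptbn1, unadjusted p of 0.0417) and 0 to 3 with 1 library left out. Members with a fold change below 0 numbered 6 to 8 with 1 library left out. List genes lower at an unadjusted p under 0.05 numbered 7 with DESeq2, 2 with limma voom and 1 to 10 with 1 library left out. Those higher numbered 2 with limma voom, 2 with the replicate block and 0 to 4 with 1 library left out. The 3 members and the 10 lower list genes came without control replicate 3, where 9.59% of all tested genes passed in either direction. In either direction 513 genes (3.96%) passed with DESeq2 and 441 with limma voom. Shares by direction over all genes were counted only for the main fit and without control replicate 2. The block used the numbers of the titles, which gave 0 called genes and 516 at an unadjusted p under 0.05. Deviations from group means correlated across genes at -0.49, 0.090 and 0.44 for equal numbers, and not every library correlated best with its own number. The count columns of CKO replicates 1, 2 and 3 are numbered 2, 3 and 4, and by those numbers the 2 equal pairs correlated at 0.088 and -0.48. Neither numbering pairs the pools.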
